A study of Mus musculus with 6 samples.

Results

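Integrins and laminins are a pair of gene families at the border between cells and the basement membrane, and their members were followed across 3 culture conditions of mouse liver cells. The set held 39 of the 52323 genes in the count table. Members were chosen by symbol alone: 25 integrin α and β chain genes, the 11 laminin chain genes, and Nid1, Nid2 and Hspg2, which encode linkers of the basement membrane. The rule leaves out an α chain that pairs with β2, so the sums and shares of integrins below cover the members only. No measured value is part of that rule, although it was set with earlier results of these data known.

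The cells, called damaged hepatocytes (dHeps), came from livers of mice with chronic carbon tetrachloride (CCl4) injury and were profiled by bulk RNA-seq on day 16 of culture. The mice were Rosa-LSL-tdTomato animals on a C57BL/6 background, 8 to 10 weeks old at the start, that had received AAV-TBG-Cre, an adeno-associated virus whose TBG promoter drives Cre in hepatocytes, and the injections ran for 12 weeks. All 3 groups shared this genotype, the injury and serum-free Hepatocyte Maintenance Medium (Lonza). The DMSO group received the solvent. The 3C group received CID755673, an inhibitor of protein kinase D, at 50 µM, with GSK429286A, another kinase inhibitor, at 2 µM and ETC-1002, which blocks ATP citrate lyase, at 5 µM. The 5C group received these agents and, in addition, salidroside, a plant glucoside, at 5 µM and forskolin, which activates adenylate cyclase, at 2 µM. Cells were obtained by perfusion of the liver with collagenase and pronase and seeded on collagen-coated plates, an isolation meant to enrich hepatocyte-derived cells. No selection of tdTomato-positive cells is described for these libraries. Each group had 2 libraries with 65916573 to 69245895 estimated counts. The labels do not say whether the libraries of a group came from different animals, so the p-values measure the spread between these samples, which may be technical.

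Integrins are heterodimers of an α and a β chain that hold cells to the matrix or to other cells and signal inward through kindlins, talin and focal adhesion kinases. Some chains are largely those of leukocytes (the β2 family, α4 and β7), others are typical of epithelia (α6β4, α3β1, αvβ6) or of mesenchymal and vascular cells. Laminins are trimers of an α, a β and a γ chain. They polymerise into a sheet that nidogens and perlecan, the product of Hspg2, tie to type IV collagen. The normal space between hepatocytes and the sinusoid lacks a continuous basement membrane, and one forms there in chronic injury.

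Itgb2 had the largest drop in FPKM of any member between the means of DMSO and of either cocktail. The DNA before the start of Itgb2 and of its 2 tested α partners among the members is shown for that reason. Itgb2 encodes the shared β2 chain, Itgam the αM chain of the complement receptor on macrophages, and Itgal the αL chain of the lymphocyte receptor LFA-1. Each sequence is the 250 bases before the start of the canonical transcript, on the gene's strand, in build GRCm39: chr10:77365836-77366085 for Itgb2, chr7:127661558-127661807 for Itgam and chr7:126895182-126895431 for Itgal, each on the plus strand. Capitals mark GAGGAA or its reverse complement TTCCTC, a core of sites bound by the myeloid transcription factor PU.1, searched on both strands.
Itgb2: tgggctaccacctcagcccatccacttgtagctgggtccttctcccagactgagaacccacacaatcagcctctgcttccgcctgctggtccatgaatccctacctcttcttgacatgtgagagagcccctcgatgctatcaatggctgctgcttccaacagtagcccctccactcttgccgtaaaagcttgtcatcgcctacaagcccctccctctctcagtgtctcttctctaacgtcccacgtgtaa
Itgam: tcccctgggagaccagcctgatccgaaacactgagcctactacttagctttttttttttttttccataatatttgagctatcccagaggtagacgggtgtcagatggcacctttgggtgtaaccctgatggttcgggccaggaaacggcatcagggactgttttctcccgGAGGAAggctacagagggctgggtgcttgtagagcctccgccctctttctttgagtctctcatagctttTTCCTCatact
Itgal: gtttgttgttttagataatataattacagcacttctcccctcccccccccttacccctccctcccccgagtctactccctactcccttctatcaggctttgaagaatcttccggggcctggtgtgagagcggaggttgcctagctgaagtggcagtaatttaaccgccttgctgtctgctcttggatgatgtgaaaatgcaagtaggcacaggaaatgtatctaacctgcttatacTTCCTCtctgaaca
In Itgam the matches begin 80 and 11 bases before the start, and in Itgal the match begins 14 bases before it. Of 39 members, 16 (41.0%) held such a match, among them 2 of the 7 leukocyte integrins and 14 of the 32 other members, beside 22.9% of 21738 protein-coding genes and 23.3% of the 14822 protein-coding genes tested. A match is a run of letters and not a bound site, and no match says only that these letters are not in this window.

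Transcript levels per length set the members far apart. On the FPKM scale, which divides fragments by transcript length and library size, Itgb1 was the highest member in each group, at 236 ± 7.25 in DMSO, 196 ± 5.21 in 3C and 216 ± 3.52 in 5C (mean ± SD, n = 2 throughout). In DMSO it was followed by Itgb5 (131 ± 7.31), Itgb2 (124 ± 4.12), Itga3 (101 ± 0.803) and Nid1 (50.1 ± 1.03), and Itgb5 and Itgb2 did not differ beyond their spread. In 5C the order was Itgb1, Itgb5 (112 ± 8.40), Itga3 (91.4 ± 11.7), Lamc1 (52.6 ± 3.33), Nid2 (49.9 ± 5.24) and Lamb2 (48.7 ± 4.84). Neighbours from Lamc1 to Lamb2 did not differ beyond their spread. Itgb2 moved from the 3rd place among the 39 members in DMSO to the 5th in 3C and the 12th in 5C.

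A member was called when its adjusted p in the edgeR test over all genes was under 0.05 and its log2 fold change was beyond 1 in either direction. Of the 39 members, 37 passed the filter on low counts and were tested. In 5C against DMSO, 8 were called higher and 7 lower, where 7.3% and 4.42% of all 19135 genes tested, 11.7% in either direction, were called. In 3C against DMSO, 7 were called higher and 5 lower, beside 5.83% and 3.62% of all genes, or 9.45% in either direction. Between 5C and 3C, 4 were called higher in 5C and 2 lower, beside 2.16% and 0.852%, or 3.01% in either direction. The median log2 fold change over the 37 members was 0.26, 0.05 and -0.05 in these comparisons, and over all genes tested it was 0.00, 0.01 and -0.01. Both comparisons with DMSO use the same DMSO libraries. The libraries of the groups did not overlap for 34, 29 and 32 of the 37 members, beside 63.1%, 61.3% and 58.0% of all genes.

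**Figure D1:**
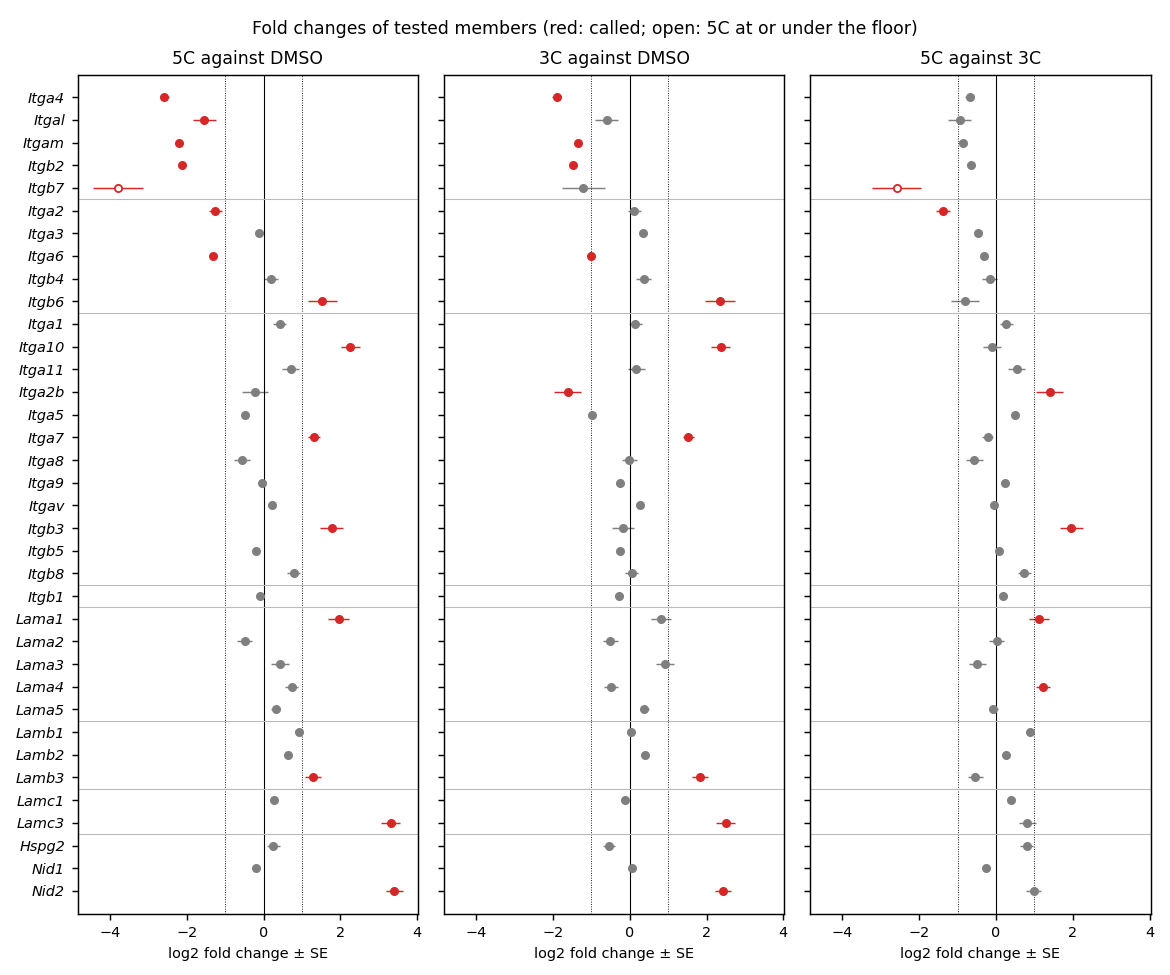
Log2 fold changes of tested members with their standard errors, in panels for each cocktail against DMSO and for 5C against 3C, one row a gene, with grey lines between the groups of members, dotted lines at -1 and 1, called values in red, and open points where 5C was at or under the floor. The 5 leukocyte integrins in the top block lie left of 0 in each panel, while Nid2 and Lamc3 lie farthest right in the comparisons with DMSO.

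Of the 7 leukocyte integrins 5 were tested. Of these, 5 were called lower in 5C against DMSO, 3 in 3C against DMSO and 1 in 5C against 3C, with median log2 fold changes of -2.21, -1.34 and -0.86. Among all genes tested, 4.42%, 3.62% and 0.852% were called lower in these comparisons. The single call between the cocktails was Itgb7. The summed FPKM of the 7 genes was 178.8 and 167.0 in the DMSO libraries, 62.5 and 64.4 in 3C and 38.2 and 37.2 in 5C. The 18 other integrins together gave 607 and 574 in DMSO, 535 and 547.5 in 3C and 526 and 527 in 5C. Leukocyte chains thus made up 22.7% and 22.5% of the FPKM of the integrin members in DMSO. Their share was 10.5% and 10.5% in 3C and 6.78% and 6.59% in 5C.

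**Figure D2:**
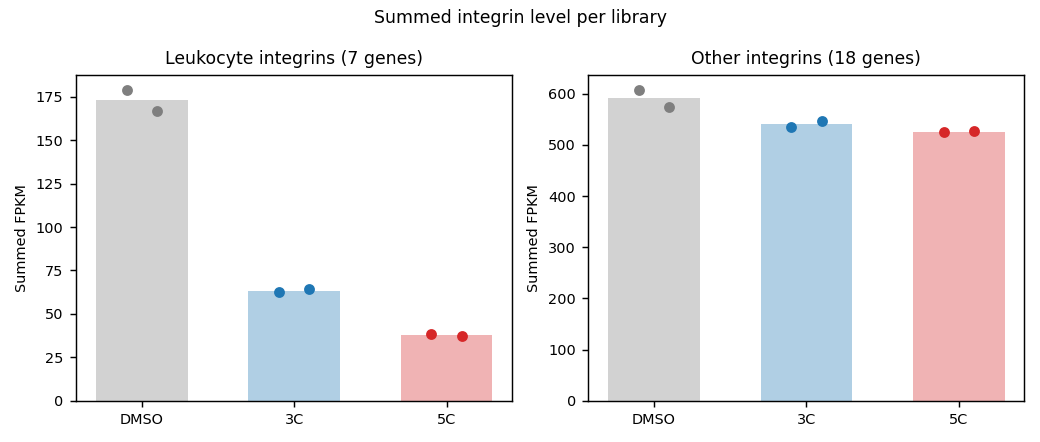
Summed FPKM of the 7 leukocyte integrin genes (left) and of the 18 other integrin genes (right) in DMSO, 3C and 5C, with points for the 2 libraries, bars for their mean and both axes starting at 0. The leukocyte sum lies between 167.0 and 178.8 in DMSO and between 37.2 and 38.2 in 5C, while the sum of the others stays between 526 and 607 in the 6 libraries.

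Itgb2, the β2 chain, stood at 403 and 404 CPM (counts scaled to the library total) in DMSO, 146 and 148 in 3C and 91.4 and 90.3 in 5C. Its libraries fell into 3 separate levels, with 5C lowest. Its log2 fold change was -2.13 (standard error 0.07, adjusted p = 2.1e-07) in 5C against DMSO and -1.49 (standard error 0.06, adjusted p = 1.71e-06) in 3C against DMSO. The difference of -0.64 between 5C and 3C (standard error 0.06, adjusted p = 0.000534) passed the test and was under the fold limit. As a share of the FPKM of all β chains, Itgb2 went from a mean of 25.0% in DMSO to 12.5% in 3C and 7.59% in 5C.

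Itgam, the αM partner of β2, was measured at 228 and 214 CPM in DMSO, 89.7 and 88.5 in 3C and 46.8 and 47.7 in 5C. It fell by 2.21 on the log2 scale in 5C (standard error 0.07, adjusted p = 2.1e-07) and by 1.34 in 3C (standard error 0.07, adjusted p = 2.61e-06), and 5C was lower than 3C by a log2 difference of -0.86 (standard error 0.07, adjusted p = 0.000224). The 3 groups did not overlap. The reading is uncertain where reads could be split, since 70.9% of the 50-base words of its longest transcript also occur in Gm49368, a gene that overlaps it on the same strand. Gm49368 itself held 0 to 212 estimated counts a library.

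Itga4 encodes α4, which pairs with β1 or β7 and binds VCAM-1 and MAdCAM-1. Its level was 48.5 and 42.1 CPM in DMSO, 11.99 and 12.8 in 3C and 7.09 and 7.81 in 5C. The log2 fold change was -2.58 in 5C (standard error 0.12, adjusted p = 1.16e-06), -1.90 in 3C (standard error 0.12, adjusted p = 8.18e-06) and -0.68 between 5C and 3C (standard error 0.12, adjusted p = 0.00622). The DMSO libraries were the highest and the groups stayed apart. Exons of Cerkl overlap it on the other strand, and whether the counting used strand is not stated.

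Itgal, the αL chain, was low, at 3.96 and 3.78 CPM in DMSO, 2.72 and 2.49 in 3C and 1.03 and 1.57 in 5C. It was called lower in 5C against DMSO, with a log2 fold change of -1.55 (standard error 0.30, adjusted p = 0.00427). The values of -0.60 in 3C against DMSO (standard error 0.29, adjusted p = 0.184) and -0.95 in 5C against 3C (standard error 0.30, adjusted p = 0.0763) did not pass, although the libraries of the 3 groups did not overlap. Itgb7, the β7 chain of lymphocyte homing receptors, had 2.20 and 1.11 CPM in DMSO, 0.755 and 0.704 in 3C and 0.0579 and 0.173 in 5C. The 5C libraries lay at or under the floor of 12 counts a library, so that 5C was at least 9.53-fold lower than DMSO (adjusted p = 0.00211) and at least 4.197-fold lower than 3C (adjusted p = 0.0293). The call against 3C was lost without 3C replicate 1, 3C replicate 2 or 5C replicate 1, and with the replicate block, with the 4 libraries alone, with a minimum of 10 counts in every library and in the limma fits. Itgb7 was also not among the calls against DMSO with a minimum of 10 counts in every library or in the limma fits. Its bounds rest on the assumption that 4 counts stand for 1 fragment. The median of the leukocyte list is the same with Itgb7 at these bounds. Itgad and Itgae, the αD and αE chains, did not exceed the floor in any of the 6 libraries and were not tested. Itgae had 0 CPM in both DMSO libraries, 0.151 and 0.103 in 3C and 0.0579 and 0.0867 in 5C.

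Markers of macrophages moved in the same libraries. Of 18 such genes, 15 were called lower and 1, Cx3cr1, higher in each comparison with DMSO, and 14 passed the test lower in 5C than in 3C without reaching the fold limit. Among all genes, 4.42% were called lower and 7.3% higher in 5C against DMSO, and 3.62% and 5.83% in 3C against DMSO. In 5C against 3C 5.33% of all genes passed lower. The summed level of the 18 markers was 14139 to 15284 CPM in DMSO, 5136 to 5155 in 3C and 3436 to 3502 in 5C. Spi1, which encodes PU.1, had log2 fold changes of -1.79 in 5C (adjusted p = 3.49e-06), -1.23 in 3C (adjusted p = 3.71e-05) and -0.56 between 5C and 3C (adjusted p = 0.00769). Of 8 neutrophil markers 5, and of 8 T and B cell markers 7, were at or under the floor in each group, among them Ly6g and Cd3e. Of the 3 neutrophil markers tested, Csf3r was called lower, at -2.04 in 5C (adjusted p = 0.00181) and -2.03 in 3C (adjusted p = 0.00217), as was Mmp8, at -1.26 (adjusted p = 0.00424) and -1.20 (adjusted p = 0.00638). S100a8 did not pass, at -2.76 (adjusted p = 0.134) and -2.49 (adjusted p = 0.185). In bulk RNA, fewer cells of a type and less RNA per cell cannot be told apart, and the part of macrophage or neutrophil content in the leukocyte integrin values was not tested.

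The label names the cells hepatocytes. The 10 hepatocyte markers were above 0 in every library and summed to 1721 to 1929 CPM in DMSO, 9905 to 10398 in 3C and 9992 to 14548 in 5C. Markers of other liver cells were present as well. The 12 stellate and fibroblast markers summed to 7764 to 9081 CPM in DMSO, 7087 to 7187 in 3C and 11561 to 12580 in 5C. These sums came mostly from Col1a1, Col1a2 and Col3a1. Unlike the sum, the list was more often higher than lower in 3C against DMSO, with 6 passing higher and 3 lower (median log2 fold change 0.53). Among all genes, 12.7% passed higher and 11.8% lower there. The 7 mesothelial markers summed to 979 to 1193 CPM in DMSO, 1263 to 1409 in 3C and 2308 to 2412 in 5C. Cholangiocyte markers, 6 genes, gave 153 to 155, 338 to 408 and 332 to 353 CPM, and 4 of the 6 were called higher in 3C and 3 in 5C. The 12 endothelial markers summed to 355 to 378, 106 to 146 and 185 to 285 CPM, in DMSO mostly from Lyve1, which had 309 and 319 CPM in DMSO and 48.8 and 66.4 in 5C. Most of the list went the other way. Calls over the 11 tested were 8 upward and 2 downward in 5C against DMSO (median log2 fold change 3.34), 6 upward and 2 downward in 3C against DMSO (median 1.74) and 6 upward in 5C against 3C (median 1.52). Pecam1, for example, had 0.879 and 0.698 CPM in DMSO, 3.11 and 8.77 in 3C and 22.3 and 41.4 in 5C. Of the 7 mesothelial markers 5 were called higher in 5C against DMSO and 1 in 3C against DMSO. Beside these marker counts, 7.3% of all genes were called higher and 4.42% lower in 5C against DMSO. The shares were 5.83% and 3.62% in 3C against DMSO and 2.16% and 0.852% in 5C against 3C. Whether the contents of these cell types shaped the values of the members below was not tested.

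Among the 5 epithelial integrins, 2 were called lower and 1 higher in 5C against DMSO, and 1 lower and 1 higher in 3C against DMSO. Beside these counts, 4.42% of all genes were called lower and 7.3% higher in 5C, and 3.62% and 5.83% in 3C. Itga6 encodes α6, a laminin receptor chain that pairs with β1 or β4. It measured 118 and 115 CPM in DMSO, 55.9 and 63.3 in 3C and 44.3 and 48.8 in 5C. Both cocktails lay well under DMSO. Its log2 fold change was -1.31 in 5C (standard error 0.09, adjusted p = 7.98e-06) and -1.001 in 3C (standard error 0.09, adjusted p = 4.93e-05). The 3C value sits at the fold limit, and the call was lost under 11 of 18 other settings, such as -0.91 without 3C replicate 1, with every adjusted p under 0.05. Between 5C and 3C the difference of -0.31 did not pass (standard error 0.09, adjusted p = 0.0542).

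Itga2, the α2 chain of a collagen receptor, separated 5C from the other groups. It had 32.6 and 40.5 CPM in DMSO, 36.7 and 44.4 in 3C and 13.0 and 17.1 in 5C. The DMSO and 3C libraries overlapped, and both 5C libraries were below them. Itga2 was lower in 5C than in DMSO by a log2 fold change of -1.26 (standard error 0.18, adjusted p = 0.000919) and lower than in 3C by -1.38 (standard error 0.18, adjusted p = 0.0022). For 3C against DMSO the value was 0.12 (standard error 0.17, adjusted p = 0.700).

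Itgb6 encodes β6, which pairs with αv to activate latent TGF-β and is found on epithelia under injury. It was near the limit of measurement, at 0.476 and 0.819 CPM in DMSO, 2.67 and 4.10 in 3C and 1.81 and 1.91 in 5C. The DMSO libraries were the lowest. On the log2 scale the change was 2.35 in 3C (standard error 0.39, adjusted p = 0.00209) and 1.53 in 5C (standard error 0.38, adjusted p = 0.0158), and the difference of -0.82 between 5C and 3C did not pass (standard error 0.36, adjusted p = 0.209). The 5C call was lost without DMSO replicate 1 (adjusted p = 0.0791), 5C replicate 1 (adjusted p = 0.0532) or 5C replicate 2 (adjusted p = 0.0655).

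Itga3, which encodes the α3 chain of the laminin receptor α3β1, was the α chain with the largest FPKM share in each group, with means of 37.9% in DMSO, 51.7% in 3C and 45.6% in 5C. Itga3 held a higher share in 5C than in DMSO at a mean FPKM of 91.4 against 101. Its levels were 529.7 and 546 CPM in DMSO, 706 and 689 in 3C and 528 and 454 in 5C. The 3C libraries were the highest, with log2 differences of 0.34 from DMSO (adjusted p = 0.0123) and, for 5C against 3C, of -0.46 (adjusted p = 0.00624), both under the fold limit. Itgb4, the β4 chain of hemidesmosomes, held 16.0 to 27.1 CPM in the 6 libraries and passed in no comparison. Its log2 fold change was 0.20 in 5C (standard error 0.19, adjusted p = 0.505) and 0.36 in 3C (standard error 0.19, adjusted p = 0.218).

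**Figure D3:**
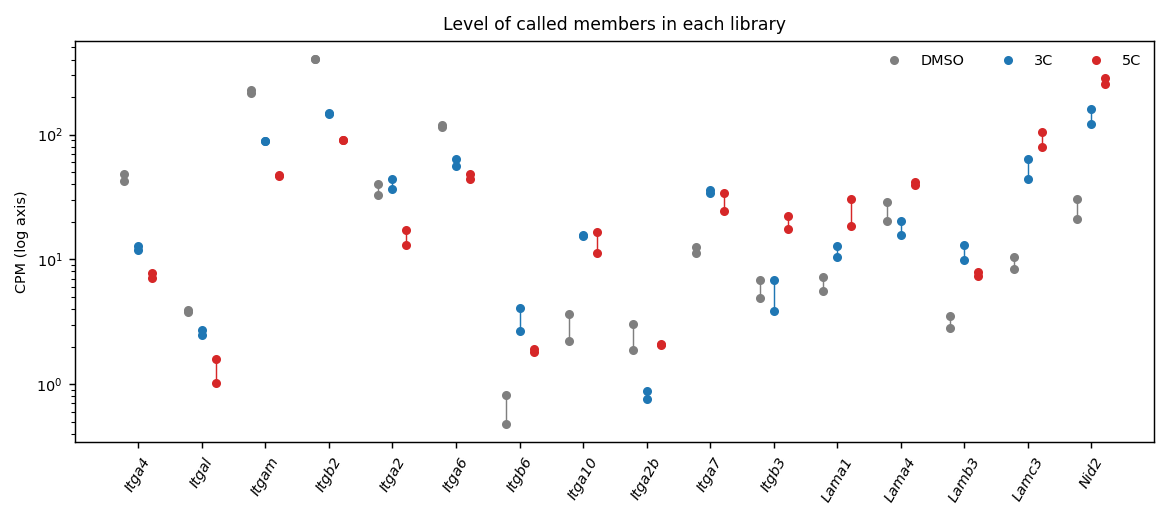
Level in each library of members called in at least 1 comparison with a mean of at least 1 CPM, on a log axis of CPM, with a pair of joined points for each group. Itgb2, Itgam and Itga4 step down from DMSO to 3C to 5C, Nid2 and Lamc3 step up, and Itga2 and Itgb3 set 5C apart from DMSO and 3C.

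Of the 12 stromal and vascular integrins, 3 were called higher and 0 lower in 5C against DMSO by edgeR, and 2 higher and 1 lower in 3C against DMSO. Beside these counts, 7.3% of all genes were called higher and 4.42% lower in 5C, and 5.83% and 3.62% in 3C. Itga10 encodes α10, a collagen receptor chain of mesenchymal cells. Its level was 3.63 and 2.23 CPM in DMSO, 15.6 and 15.3 in 3C and 16.5 and 11.3 in 5C. DMSO was the lowest group, while 3C and 5C overlapped. The log2 fold change was 2.26 in 5C (standard error 0.25, adjusted p = 0.00017), 2.37 in 3C (standard error 0.25, adjusted p = 0.000166) and -0.10 between 5C and 3C (standard error 0.23, adjusted p = 0.857). The value is uncertain where reads could be split, since 32.0% of its 50-base words also occur in Gm42957, which overlaps it on the same strand and held 0 to 129 estimated counts a library.

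Itga7, the α7 chain, a laminin receptor best known from muscle, rose in both cocktails. It had 12.5 and 11.2 CPM in DMSO, 33.9 and 36.0 in 3C and 34.0 and 24.4 in 5C. The cocktail groups overlapped each other and not DMSO. Its log2 fold change was 1.31 in 5C (standard error 0.15, adjusted p = 0.000188) and 1.52 in 3C (standard error 0.15, adjusted p = 0.0001), and the difference of -0.21 between them did not pass (standard error 0.15, adjusted p = 0.445).

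Itgb3, the β3 chain of the vitronectin receptor αvβ3 and of the platelet fibrinogen receptor, was set apart by 5C. Its level was 6.88 and 4.90 CPM in DMSO, 3.82 and 6.80 in 3C and 17.5 and 22.3 in 5C. The DMSO and 3C libraries overlapped and lay under both 5C libraries. Itgb3 was higher in 5C, with a log2 fold change of 1.78 against DMSO (standard error 0.30, adjusted p = 0.00293) and of 1.96 against 3C (standard error 0.30, adjusted p = 0.00515). In 3C against DMSO the value was -0.18 (standard error 0.29, adjusted p = 0.741). Its usual partner on other cells than platelets, Itgav, held 184 to 242 CPM in the 6 libraries, with a log2 fold change of 0.23 in 5C (adjusted p = 0.0505) and 0.28 in 3C (adjusted p = 0.0250).

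Itga2b, the αIIb partner of β3 on platelets, took another course. It was at 3.05 and 1.87 CPM in DMSO, 0.755 and 0.879 in 3C and 2.06 and 2.11 in 5C. The 3C libraries were the lowest, and 5C overlapped DMSO. It was called lower in 3C against DMSO, at -1.62 on the log2 scale (standard error 0.35, adjusted p = 0.00885), and higher in 5C than in 3C, at 1.40 (standard error 0.35, adjusted p = 0.0315), and the value of -0.22 in 5C against DMSO did not pass (standard error 0.34, adjusted p = 0.696). The first call was lost without DMSO replicate 1 (adjusted p = 0.0562) or 3C replicate 1 (adjusted p = 0.0707). The second was lost without any 1 of the 4 libraries compared (adjusted p from 0.101 to 0.191). Of 6 platelet markers, 4 were at or under the floor in DMSO and 3C and 5 in 5C, and Gp9, Ppbp and Gp6 were among them in each group.

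Itga5, the α5 chain of the fibronectin receptor α5β1, was lower in both cocktails without being called. It had 170.3 and 175 CPM in DMSO, 89.5 and 88.8 in 3C and 119 and 124 in 5C. The groups did not overlap, and 3C was the lowest. The log2 fold change of -0.99 in 3C (standard error 0.07, adjusted p = 1.22e-05) fell just inside the limit, next to -0.49 in 5C (adjusted p = 0.000520) and 0.50 for 5C against 3C (adjusted p = 0.00198). Itgb8, the β8 chain of another receptor that activates latent TGF-β, passed with 0.78 in 5C against DMSO (adjusted p = 0.00847) and 0.73 against 3C (adjusted p = 0.0238). Itga11, a collagen receptor chain of fibroblasts, passed with 0.71 in 5C (adjusted p = 0.0412), and Itgb5, the β5 partner of αv, with -0.26 in 3C (adjusted p = 0.0423). Itga1, Itga8 and Itga9 passed in no comparison, with log2 fold changes between -0.57 and 0.42.

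The shared β1 chain, Itgb1, which pairs with most of the α chains above, moved by less than the fold limit. Its level was 986 and 992 CPM in DMSO, 829 and 842 in 3C and 892 and 940.1 in 5C. The libraries did not overlap between groups. On the log2 scale the change was -0.28 in 3C (standard error 0.07, adjusted p = 0.0176) and -0.09 in 5C (standard error 0.07, adjusted p = 0.381). Its share of the FPKM of all β chains had means of 47.6% in DMSO, 55.2% in 3C and 59.5% in 5C. The share rose while the mean FPKM of Itgb1 did not, at 236, 196 and 216. In the same total, the share of Itgb2 was 25.0%, 12.5% and 7.59%.

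More laminin chains passed the test upward than downward. Of the 11 genes, 8 passed the test higher in 5C against DMSO and 0 lower by edgeR, where 15.6% and 13.1% of all genes passed higher and lower, and 3 of the 8 were called. In 3C against DMSO, 6 passed higher and 0 lower, beside 12.7% and 11.8%, with 3 called. Between 5C and 3C, 4 passed higher and 1 lower, beside 7.33% and 5.33%, with 2 called higher. Among all genes, 7.3%, 5.83% and 2.16% were called higher in these comparisons. Median log2 fold changes over the 11 chains were 0.65, 0.39 and 0.26. The summed FPKM of the chains was 153 and 125 in DMSO, 166 and 165 in 3C and 207 and 206 in 5C.

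Lamc3 encodes the γ3 chain, a rarer alternative to γ1, from a gene at chr2:31777258-31839117 in GRCm39. It had 10.5 and 8.30 CPM in DMSO, 64.3 and 44.3 in 3C and 106 and 79.3 in 5C. The groups did not overlap, and 5C was the highest. The log2 fold change was 3.31 in 5C (standard error 0.24, adjusted p = 0.000175) and 2.49 in 3C (standard error 0.24, adjusted p = 0.000668), or 9.94-fold and 5.64-fold. The difference of 0.82 between 5C and 3C did not pass (standard error 0.22, adjusted p = 0.0682) but was called without 3C replicate 1, at 1.11 (adjusted p = 0.0241). Of the FPKM of the γ chains, Lamc3 held a mean of 3.00% in DMSO, 14.6% in 3C and 20.1% in 5C.

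Lamb3 and Lama3 encode β3 and α3 chains of laminins that anchor epithelia. Lamb3 was at 3.54 and 2.81 CPM in DMSO, 9.96 and 13.0 in 3C and 7.92 and 7.37 in 5C. It was called in both cocktails, at 1.83 on the log2 scale in 3C (standard error 0.21, adjusted p = 0.000216) and 1.29 in 5C (standard error 0.20, adjusted p = 0.0014), and its difference of -0.54 between 5C and 3C did not pass (standard error 0.20, adjusted p = 0.123). For Lama3 the libraries had 2.87 and 2.49 CPM in DMSO, 4.80 and 5.53 in 3C and 3.82 and 3.29 in 5C. In each of the 2 genes 3C was the highest group and DMSO the lowest, with no overlap. Lama3 passed in 3C against DMSO, at 0.91 (standard error 0.23, adjusted p = 0.0184), and not in the other comparisons. Between 5C and 3C the 6 cholangiocyte markers had a median log2 fold change of -0.30, and Sox9 passed at -0.49 (adjusted p = 0.00961). Their part in the values of Lamb3 and Lama3 was not tested.

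Lama1, the α1 chain typical of embryonic basement membranes, was raised in 5C. It had 5.60 and 7.27 CPM in DMSO, 10.4 and 12.9 in 3C and 18.7 and 30.5 in 5C. The groups did not overlap, and the 5C libraries were unequal. Its log2 fold change was 1.95 in 5C against DMSO (standard error 0.27, adjusted p = 0.00115), 0.82 in 3C against DMSO (standard error 0.26, adjusted p = 0.0587) and 1.13 in 5C against 3C (standard error 0.26, adjusted p = 0.0285). The last call was lost without 3C replicate 1 (0.99, adjusted p = 0.190), 3C replicate 2 (1.29, adjusted p = 0.0934) or 5C replicate 2 (0.71, adjusted p = 0.116).

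Lama4, the α4 chain of vascular and mesenchymal laminins, differed between the cocktails. It was at 28.9 and 20.5 CPM in DMSO, 15.6 and 20.3 in 3C and 39.2 and 41.7 in 5C. Both 5C libraries were above the rest. In 5C against 3C, the 11 endothelial markers tested gave 6 upward calls and 0 downward. Lyve1 and Vwf had negative log2 fold changes there, at -0.27 and -0.47, and did not pass. The 7 mesothelial markers gave 4 upward calls and 0 downward. Among all genes, the upward and downward shares were 2.16% and 0.852%. Of 12 stellate and fibroblast markers 5 passed higher and 2 lower, beside 7.33% and 5.33%. The part of these markers' cells in the values of Lama4 and Itgb3 was not tested. On the log2 scale Lama4 changed by 1.22 in 5C against 3C (standard error 0.18, adjusted p = 0.00339), 0.73 in 5C against DMSO (standard error 0.18, adjusted p = 0.0144) and -0.49 in 3C against DMSO (standard error 0.18, adjusted p = 0.0842). Lama5, the α5 chain, held most of the α chain FPKM, with means of 73.7% in DMSO, 81.8% in 3C and 72.7% in 5C, and passed in 3C against DMSO at 0.38 (adjusted p = 0.0491). Lama2, the α2 chain of muscle and nerve laminins, passed in no comparison, at -0.48 in 5C (adjusted p = 0.116) and -0.50 in 3C (adjusted p = 0.116).

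The β and γ chains of the common laminins rose in 5C by less than the fold limit. Lamb1, the β1 chain, had 152 and 138 CPM in DMSO, 146 and 158 in 3C and 246 and 291 in 5C. DMSO and 3C overlapped and 5C lay above both. Its log2 fold change was 0.91 in 5C against DMSO (standard error 0.10, adjusted p = 0.000133), 0.87 against 3C (standard error 0.10, adjusted p = 0.000917) and 0.04 in 3C against DMSO (standard error 0.10, adjusted p = 0.839). Lamb2, the β2 chain, passed at 0.65 in 5C (adjusted p = 0.000717) and 0.39 in 3C (adjusted p = 0.0135). Lamc1, the γ1 chain shared by most laminins, passed at 0.29 in 5C against DMSO (adjusted p = 0.0324) and 0.40 against 3C (adjusted p = 0.0151).

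**Figure D4:**
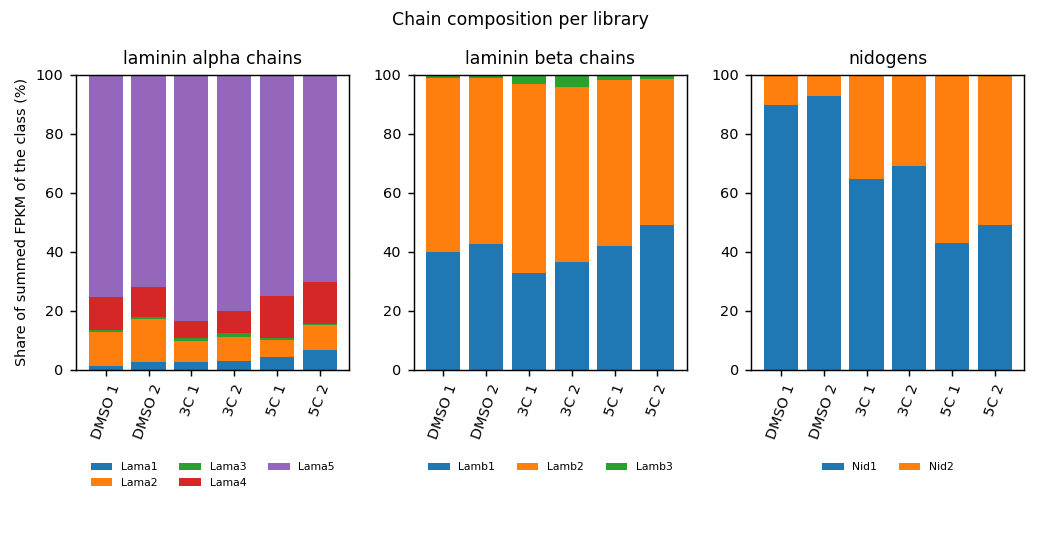
Composition of the laminin α and β chains and of the nidogens in each library, as stacked percentages of the summed FPKM of the class. Nid2 goes from a mean of 8.73% of the nidogens in DMSO to 53.9% in 5C, while Lama5 stays the largest α chain throughout.

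Nid2, which encodes nidogen-2, had the highest log2 fold change of the members in 5C against DMSO. The gene lies at chr14:19801298-19861855 in GRCm39. It measured 30.3 and 21.0 CPM in DMSO, 160.3 and 122 in 3C and 285 and 253 in 5C. The groups rose in that order without overlap. The log2 fold change was 3.41 in 5C (standard error 0.21, adjusted p = 9.34e-05), a 10.6-fold difference, and 2.43 in 3C (standard error 0.21, adjusted p = 0.000431), a 5.39-fold difference. Between 5C and 3C it was 0.98 (standard error 0.19, adjusted p = 0.0267), just inside the fold limit, and it was called there without 3C replicate 1, at 1.19 (adjusted p = 0.0288). Exons of Rtraf overlap Nid2 on the other strand.

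Nid1, its paralog and the more abundant nidogen of most tissues, passed in no comparison. It had 332 and 339 CPM in DMSO, 367 and 343 in 3C and 269 and 305 in 5C. The 5C libraries were the lowest, with log2 fold changes of -0.20 against DMSO (standard error 0.08, adjusted p = 0.107) and -0.25 against 3C (standard error 0.08, adjusted p = 0.0907). The ratio of Nid2 to Nid1 in FPKM was 0.114 and 0.0776 in DMSO, 0.547 and 0.447 in 3C and 1.32 and 1.04 in 5C, so that Nid2 passed Nid1 in both 5C libraries. Hspg2, which encodes perlecan, had 542 and 375 CPM in DMSO, 324 and 320.0 in 3C and 504 and 575 in 5C. The spread within DMSO was wide. It passed in 5C against 3C at 0.80 (standard error 0.16, adjusted p = 0.0223), and the values of 0.26 in 5C (adjusted p = 0.305) and -0.54 in 3C (adjusted p = 0.0536) against DMSO did not pass.

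Type IV collagen, the other network of the basement membrane, had 6 chain genes tested. In 5C against DMSO 2 passed higher and 0 lower by edgeR, beside 15.6% and 13.1% of all genes. In 3C against DMSO 0 passed higher and 2 lower, beside 12.7% and 11.8%, and Col4a6 was called at -1.12 (adjusted p = 1.63e-05). Between 5C and 3C 4 passed higher, beside 7.33% of all genes, and none was called. Of 8 other laminin receptors and partners, 6 passed higher in 5C and 5 in 3C, beside the same 15.6% and 12.7% of all genes. Bcam, a receptor for laminin α5, was called in both, at 1.52 in 5C (adjusted p = 8.09e-07) and 1.25 in 3C (adjusted p = 4.26e-06). Agrn, which encodes agrin, was called in 3C at 1.04 (adjusted p = 5.36e-05).

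Among 24 integrin adaptors and kinases, 10 passed higher and 7 lower in 5C against DMSO, beside 15.6% and 13.1% of all genes. In 3C against DMSO 5 passed higher and 7 lower, beside 12.7% and 11.8%. In each of these comparisons 3 were called, beside 11.7% and 9.45% of all genes. Fermt3, the kindlin of blood cells, was lower in 5C at -1.80 (adjusted p = 7.82e-07) and in 3C at -1.19 (adjusted p = 9.67e-06), and Parvg, a parvin of blood cells, at -1.82 (adjusted p = 3.52e-05) and -1.62 (adjusted p = 9.05e-05). Parvb, another parvin, was lower in 5C at -1.03 (adjusted p = 0.000226). Fermt1, the kindlin of epithelia, was called higher in 3C at 1.35 (adjusted p = 0.00261), beside 0.75 in 5C (adjusted p = 0.0386). Fermt3 and Parvg moved in the direction of the leukocyte integrins and of the macrophage markers given above.

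Of 12 integrin ligands, Vtn was the one called in both comparisons with DMSO. Vtn encodes vitronectin, which hepatocytes secrete and which αvβ3 and αvβ5 bind, and it had log2 fold changes of 3.76 in 5C (adjusted p = 3.73e-06) and 3.45 in 3C (adjusted p = 8.18e-06), beside the hepatocyte marker sums given above. Thbs1, which encodes thrombospondin-1, was called higher in 5C against DMSO at 1.29 (adjusted p = 6.69e-06). Tnc, which encodes tenascin-C, was lower in 3C against DMSO at -2.06 (adjusted p = 0.000986) and higher in 5C than in 3C at 1.35 (adjusted p = 0.0128). Fbln1, which encodes fibulin-1, was higher in 5C than in 3C at 1.28 (adjusted p = 0.0400), and Cdh1, which encodes E-cadherin, a ligand of αEβ7, was lower at -1.15 (adjusted p = 0.00027).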

How the data were processed

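Bulk RNA-seq of 6 libraries, grouped by the treatment label, was analysed from 2 tables. The deposited count table holds estimated counts per gene for 52323 genes, whole numbers that the authors did not normalize, and the deposited FPKM table holds FPKM that the authors divided by gene length and by library size. Paired reads were mapped by the authors to GRCm39, and the submitters' processing notes name featureCounts, Subread and DESeq2. The annotation release and the use of strand are not given in the sources used here. Among low counts, 4 (4816 entries) and 8 (2323) were more frequent than their neighbours, but 1 was the most frequent (6338), which 4 units a fragment would not give, so the number of units per fragment is unknown. It was assumed to be 4, which puts the floor of 3 fragments at 12 units. Intervals and floors cover counting error only. Between libraries, the ratio of count to FPKM varied by a median factor of 1.03 (90th percentile 1.18) over 10047 genes.

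Counts were tested with edgeR 4.0.16 (R 4.3.3) by its quasi-likelihood F test (robust, TMM, filterByExpr, 6 libraries, 3 residual degrees of freedom, common coefficient of variation 18.4%), with Benjamini-Hochberg adjustment over 19135 genes, a threshold of 0.05 and a log2 limit of 1. Standard errors are those the F statistic implies. Full values are given for members called in at least 1 comparison with a mean of at least 1 CPM, other members may be named with their levels, and at most the 3 largest and 3 smallest called changes of each pathway list are named. Members, roles, lists and alternatives were chosen with earlier results of these data known. Alternatives used DESeq2 1.42.0 and limma 3.58.1 on log2(FPKM + 1) and log2(FPKM + 0.1), with a minimum of 0.5 FPKM in 2 libraries where filtered. The steps were tested on simulated data. Positions, transcript starts and 50-base words came from the GRCm39 genome with its GENCODE annotation. Same-numbered libraries did not deviate together (correlations of deviations between -0.031 and 0.016), so the numbers were not taken as pairs. Exons of other genes overlap some members on the other strand, such as Mocs2 (Itga2), Tmt1b (Itga7), Fam229b (Lama4), Adrm1 (Lama5), Dld (Lamb1), G0s2 (Lamb3) and Ldlrad2 (Hspg2), whose reads cannot be told apart if strand was not used. Protein sequences were not analysed here. Some genes, 1 member included, are not reported here by name, and they stay in the counts of their lists and out of the figures.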

Additional observations from a re-analysis of the deposited data

How the results depend on the processing

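The 17 members that met the rule for full values had 31 called values. In 558 checks of these under other settings, the call was kept in 512, lost in 46 and reversed in 0. A setting among them kept the main fit and dropped the fold limit, so no called value could lose its call there. Among 360 such checks of values not called, 9 became called, some only because that setting dropped the fold limit. The sign changed in 6, all with 1 library left out: Itga10 in 5C against 3C (0.12, range -0.39 to 0.12), Itga2 in 3C against DMSO (-0.042 and -0.0285, range -0.042 to 0.30), Itga2b in 5C against DMSO (0.17, range -0.52 to 0.17) and Itgb3 in 3C against DMSO (0.072 and 0.18, range -0.66 to 0.18). With no fold limit, 15 members were higher in 5C against DMSO, 12 higher and 8 lower in 3C against DMSO, and 10 higher and 7 lower in 5C against 3C, of which 4 were leukocyte integrins. With limma on log2(FPKM + 1), where a pseudocount shrinks low genes, 4 members (3 leukocyte integrins) were lower in 5C against DMSO and 3 in 3C against DMSO, filtered or not. That fit gave 1 member higher in 5C than in 3C (0 unfiltered), 1 lower and 0 leukocyte integrins lower, and log2(FPKM + 0.1) gave 2, 1 and 0. Requiring 10 counts in every library, or fitting the 4 libraries compared, left 1 member and 0 leukocyte integrins lower in 5C against 3C, since Itgb7 was then not called. Leaving out 1 library gave 3 to 5 members lower in 3C against DMSO (3 without 3C replicate 1), and in 5C against 3C 2 to 4 higher (2 without 3C replicate 2 or 5C replicate 2), 1 to 2 lower and 0 to 1 leukocyte integrins lower (1 and 0 without 3C replicate 1, 3C replicate 2 or 5C replicate 1). RLE and upper quartile normalization, DESeq2, all genes with at least 1 count and counts divided by 4 kept every count of members within 1.5 times.

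With the replicate block, 1 member and 0 leukocyte integrins were lower in 5C against 3C, and Itga2b in 5C against 3C had an adjusted p of 0.0503. No other call of these members changed under the block. Same-numbered libraries share only a number, so this is no pairing.

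With 2 libraries a group and 3 residual degrees of freedom, small differences can be missed. Some passed in members with high counts, such as Itgb5 at -0.26 in 3C against DMSO. Values under 1 CPM rest on few fragments. The cause of the changed calls was not tested unless stated.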
